A study of Mus musculus with 8 samples.

Results

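The genes followed here from the young adult to the aged mouse brain act at successive steps of protein ubiquitination, namely the polyubiquitin gene Ubb, the activating enzyme gene Uba1, the conjugating enzyme genes Ube2d3 and Ube2n, the ligase genes Ube3a and Nedd4, and the hydrolase gene Uchl1. They were chosen by name, as the genes whose Ensembl identifier carries one of these symbols, and 7 of 7 were found among the 22430 genes with counts and all 7 passed the filter on low counts. The RNA came from a whole brain hemisphere of male mice of the inbred strain C57Bl/6JRj. The 8 mice fell into 4 young adults of 6 months (6m) and 4 aged animals of 24 months (24m). No transgene or treatment is named for any of them, and each mouse gave 1 library. Oxford Nanopore (ONT) direct RNA sequencing was used, in which an RNA molecule itself passes through a pore and is read once, from its 3′ end, without amplification. The deposited values are raw counts of reads per gene. They are given here as CPM, that is, counts relative to library sizes scaled by the TMM method, and log2 fold changes (log2FC) are of 24m over 6m.

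Ubiquitin is a small protein that cells attach to other proteins to mark them for degradation by the proteasome, for autophagy or for signalling. An activating enzyme (E1) loads ubiquitin with the use of ATP, a conjugating enzyme (E2) takes it over, and a ligase (E3) brings it to the substrate, while deubiquitinating enzymes remove it and regenerate free ubiquitin. Ubiquitin itself is made from 4 genes in the mouse. Ubb encodes a head-to-tail chain of ubiquitin units that are cut apart after translation, and Rps27a encodes a single ubiquitin fused to a ribosomal protein. Neurons depend on this system for the turnover of synaptic proteins and carry some of its members at very high levels, above all Uchl1, a hydrolase that is also used as a marker of neurons.

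Only 2 of the 7 genes passed both thresholds for a change, namely a p of 0.05 or less after Benjamini-Hochberg adjustment over the 9375 genes tested with edgeR's quasi-likelihood test, and a log2FC of 0.58 or more in either direction. Ube3a was lower in the aged brain, at 0.283 of its young adult level (95% interval 0.160 to 0.502). Ube2d3 was higher, at 1.52 times its young adult level (95% interval 1.22 to 1.90). Of all tested genes, 14.5% passed both thresholds, 10.3% as higher and 4.17% as lower. Without the minimum of fold, 3 of the 7 genes passed, with Uba1 added, against 21.7% of all tested genes. In 4 of the 7 genes, Uba1, Ube2d3, Ube3a and Uchl1, the CPM of the 4 young adult and the 4 aged libraries did not overlap, which held for 21.1% of all tested genes.

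**Figure D1:**
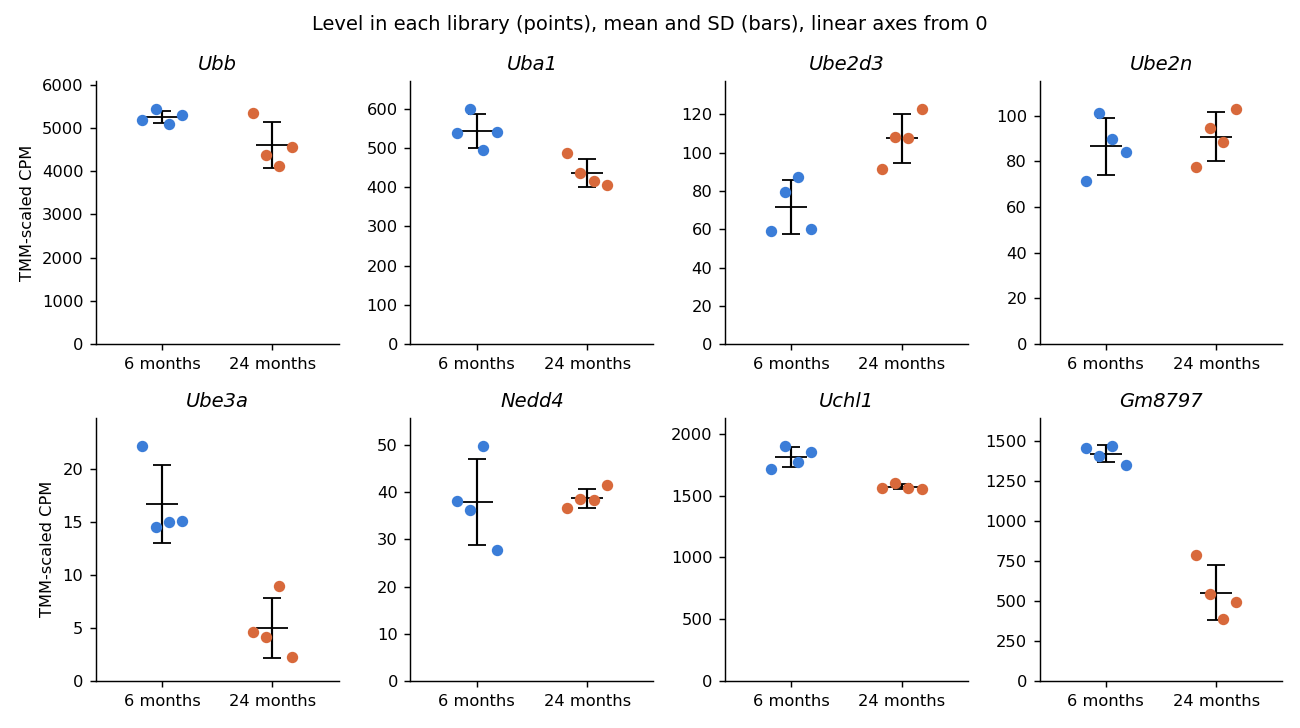
Level of the 7 genes and of the Ubb-like gene Gm8797 in each library, in TMM-scaled CPM on linear axes that start at 0, with young adult libraries in blue and aged libraries in orange. Points are libraries and bars are the mean and SD of 4 libraries. Ube3a and Gm8797 lay lower and Ube2d3 higher in every aged library than in any young adult library, whereas the ages overlapped for Ubb, Ube2n and Nedd4.

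The libraries held between 573152 and 843706 counts on genes at 6m and between 660398 and 1255424 at 24m, and the totals did not differ between the ages beyond their spread (two-sided p = 0.543 by an exact permutation test, 4 libraries per age). A count of 0 allows up to 3 counts, which came to between 2.30 and 5.42 CPM depending on the library. Among other measures of the libraries, 4 that separated the ages without overlap are given here. Transcript length is here the annotated length of the canonical transcript of each gene, not a measured length of reads. The mean transcript length, weighted by counts, was 2316 to 2348 bases at 6m and 2383 to 2490 bases at 24m, the summed CPM of 15 neuronal marker genes was 4096 to 4322 and 5137 to 5700, that of 7 oligodendrocyte marker genes was 2003 to 2574 and 2777 to 3638, and that of 10 microglial marker genes was 754.5 to 830.0 and 948.2 to 1190. Of the tested markers, 4 of 15 were called higher for neurons, 2 of 7 for oligodendrocytes and 2 of 8 for microglia, with none lower in these lists, beside 10.3% of all tested genes. For astrocytes, 4 of 8 were called higher and 1 lower, and their summed CPM overlapped between the ages. No tested marker of oligodendrocyte progenitors, endothelial cells, pericytes, choroid plexus or ependymal cells was called. All 5 red blood cell markers were called lower, beside 4.17% of all tested genes, with a summed CPM of 6090 to 10030 at 6m and 3350 to 6283 at 24m. No marker of these lists was at 0 in all libraries. For each of the 4 measures without overlap the exact permutation p was 0.029, the smallest that 4 against 4 libraries can give, and 0.097 after adjustment over the 17 measures of the libraries that were compared. Aged replicate 1 was the aged library nearest to the young adults in mean transcript length (2383 bases) and had the lowest share of mitochondrially encoded counts (6.48%, beside 7.92% to 8.94% in the other aged libraries). Without it, log2FC was -0.36 for Uba1, 0.69 for Ube2d3 and -1.82 for Ube3a, and the same 2 genes were called. The part of these measures in the results below was not tested, and in whole tissue fewer cells of a type and less RNA per cell cannot be told apart.

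Expressed per kilobase of canonical transcript, the young adult levels of the 7 genes spanned more than 3 orders of magnitude. Mean CPM per kilobase at 6m was 2050 for Ubb, 998 for Uchl1, 133 for Uba1, 23.9 for Ube2d3, 22.3 for Ube2n, 6.90 for Nedd4 and 1.62 for Ube3a. At 24m the same order held, with 1796, 866, 107, 35.9, 23.3, 7.04 and 0.487. Ube2d3 and Ube2n were the only neighbours in this order whose libraries overlapped, and they did so at 6m but not at 24m. Since a direct RNA read stands for 1 molecule whatever its length, this scale understates long transcripts such as that of Ube3a, of 10268 bases, in number of molecules. In CPM, without division by length, Ube2n was above Ube2d3 at 6m (means of 86.6 and 71.5) and below it at 24m (90.9 and 107.4), with overlapping libraries at both ages. By raw counts, Ubb was at the 99.9th and Uchl1 at the 99.3rd percentile of all tested genes, and Ube3a at the 15.7th. Together the 7 genes took 0.755% ± 0.0276 (SD, n = 4) of all counts at 6m and 0.710% ± 0.0363 (SD, n = 4) at 24m. The libraries of the ages overlapped, with 0.729% to 0.788% at 6m and 0.668% to 0.757% at 24m. The means were not told apart (two-sided p = 0.114 by an exact permutation test).

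Ubb (ENSMUSG00000019505) lies on the plus strand at chr11:62441951-62445102 of GRCm39, with 2 exons and 915 coding bases that hold 4 ubiquitin units of 228 bases in a row. The units are 95.6% to 99.1% identical to each other. A separate gene of the table, Gm8797 (ENSMUSG00000103034), is a single exon of 490 bases at chr3:5815866-5816355 on the plus strand, and its coding sequence holds 1 such unit. Its transcript matched that of Ubb at 97.9% identity over 98.2% of its length, and its unit was 96.5% to 98.7% identical to the 4 units of Ubb. The most similar unit, the second of Ubb (chr11:62443200-62443427, plus strand), is shown with the unit of Gm8797 (chr3:5815964-5816191, plus strand), since the reads of the 2 genes can be told apart there only by the 3 bases in capitals. Both sequences are from GRCm39, 5′ to 3′.
Ubb unit 2: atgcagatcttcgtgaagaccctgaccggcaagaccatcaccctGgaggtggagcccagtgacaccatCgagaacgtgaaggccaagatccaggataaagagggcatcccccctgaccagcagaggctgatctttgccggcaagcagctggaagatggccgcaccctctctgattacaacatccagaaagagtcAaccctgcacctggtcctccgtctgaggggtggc
Gm8797: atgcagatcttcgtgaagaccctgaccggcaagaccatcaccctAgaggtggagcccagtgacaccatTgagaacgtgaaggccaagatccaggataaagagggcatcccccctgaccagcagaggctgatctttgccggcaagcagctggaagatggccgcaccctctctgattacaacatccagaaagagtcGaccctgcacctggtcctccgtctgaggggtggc

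Ubb, the ubiquitin-coding gene with the most counts in these libraries, did not pass the thresholds. Its level was 5193, 5432, 5097 and 5308 CPM in the young adult libraries and 5352, 4378, 4128 and 4565 CPM in the aged libraries. Of the aged libraries, 3 were thus below every young adult library, and aged replicate 1 was within the young adult range. The mean went from 5257 ± 144.8 to 4606 ± 528.5 CPM (SD, n = 4 per age), with a log2FC of -0.19 (SE 0.0919, 95% interval -0.38 to -0.0024, adjusted p = 0.141). The sign turned after quantile normalization of the counts, where log2FC was 0.01, so no direction is given for Ubb. Without aged replicate 1, log2FC was -0.26 with an adjusted p of 5.79e-04, still under the minimum of fold. The coefficient of variation between libraries was 2.75% at 6m and 11.5% at 24m.

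Counts on the Ubb-like gene Gm8797 fell. There were 1184, 778, 1182 and 1077 counts at 6m and 517, 523, 303 and 642 at 24m, so every aged library held fewer than any young adult library. In CPM the level went from 1422 ± 54.0 to 553 ± 169.6 (SD, n = 4 per age), with a log2FC of -1.37 (SE 0.130, adjusted p = 1.49e-07). For each 100 counts on Ubb, 25.5 to 28.9 counts were on Gm8797 at 6m and 9.39 to 14.7 at 24m (means 27.1 ± 1.64 and 11.8 ± 2.29, SD, n = 4 per age, two-sided p = 0.029 by an exact permutation test, the smallest possible, and 0.097 after adjustment over the 17 measures). With the counts of the 2 genes added together, a sum chosen after seeing the data, log2FC was -0.37 with an adjusted p of 0.0065 and again under the minimum of fold. The treatment of reads that match several places is not given in the sources used here, so whether molecules of Ubb were counted on Gm8797 was not tested.

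**Figure D2:**
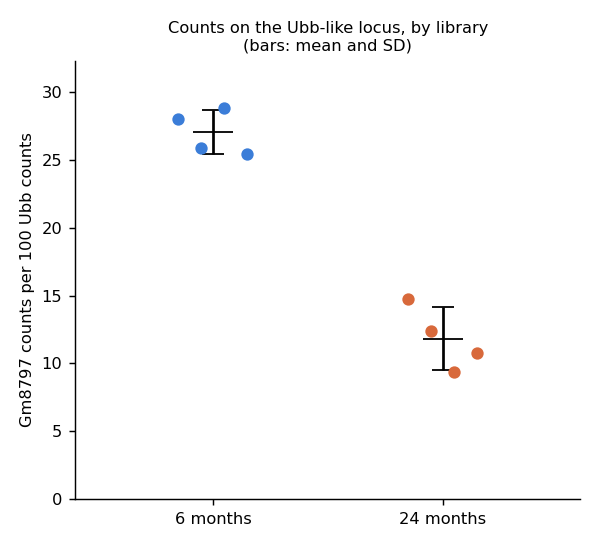
Counts on Gm8797 for each 100 counts on Ubb in each library, on a linear axis from 0. Points are libraries, with 6 months in blue and 24 months in orange, and bars are the mean and SD of 4 libraries. The young adult libraries lay between 25.5 and 28.9 and the aged ones between 9.39 and 14.7.

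None of the 4 ubiquitin-coding genes was called, beside 14.5% of all tested genes. Their median log2FC was -0.27, beside -0.003 over all tested genes. The fusion gene Rps27a had lower values in every aged library than in any young adult library but missed the minimum of fold. Rps27a overlaps Mtif2 and Clhc1 on the opposite strand, and its level was between 1215 and 1340 CPM at 6m and between 876.4 and 1106 CPM at 24m, with a log2FC of -0.35 (SE 0.0882, adjusted p = 0.0060). After quantile normalization its log2FC was -0.18 with DESeq2 (adjusted p = 0.195) and -0.17 with limma-voom (adjusted p = 0.089), so the threshold of p was missed there.

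**Figure D3:**
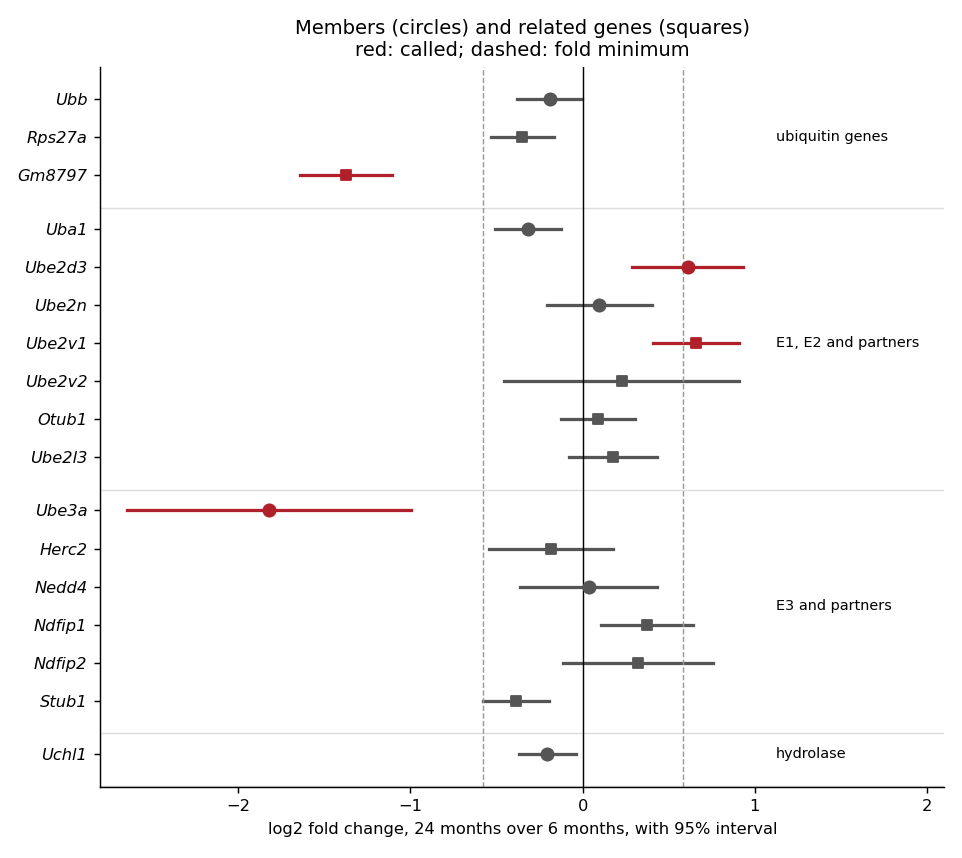
Log2FC of 24 months over 6 months with its 95% interval for the 7 genes (circles) and for Rps27a, Gm8797 and direct partners (squares), in the order of the steps of ubiquitination. Genes that passed both thresholds are red, and dashed lines mark the minimum of fold at 0.58. Ube3a, Gm8797, Ube2d3 and Ube2v1 are the genes in red.

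Uba1 (ENSMUSG00000001924, chrX:20524493-20549418, plus strand, 26 exons) encodes the E1 that charges nearly all E2 enzymes with ubiquitin. Its level was 537.9, 598.5, 494.1 and 540.0 CPM at 6m and 487.8, 435.6, 414.6 and 405.8 CPM at 24m. Every aged library was lower than any young adult library, although aged replicate 1 and young adult replicate 3 were close. The log2FC was -0.32 (SE 0.0927, 95% interval -0.51 to -0.13, adjusted p = 0.016), so that Uba1 passed the threshold of p but not that of fold. The direction was the same in all 24 alternatives, with a log2FC between -0.41 and -0.21 and an adjusted p between 0.0013 and 0.108. Of the 6 tested activating enzymes of ubiquitin and its relatives, none was called, beside 14.5% of all tested genes, and their median log2FC was 0.02.

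Ube2d3 (ENSMUSG00000078578, chr3:135142743-135176674, plus strand, 7 exons) encodes an E2 of broad use that works with many RING ligases. Counts were 48, 44, 70 and 48 at 6m and 60, 104, 84 and 160 at 24m, which corresponds to 59.1, 79.6, 87.1 and 60.3 CPM and to 91.5, 108.1, 107.5 and 122.7 CPM. The ages did not overlap in CPM, with aged replicate 1 and young adult replicate 3 nearest to each other. The mean rose from 71.5 ± 14.0 to 107.4 ± 12.8 CPM (SD, n = 4 per age), with a log2FC of 0.61 (SE 0.156, 95% interval 0.29 to 0.93, adjusted p = 0.0067). This value was just above the minimum of fold, and it came under it, with 0.53, 0.54 and 0.55, without young adult replicate 1, young adult replicate 4 or aged replicate 4, respectively. The adjusted p was at most 0.038 in all 24 alternatives. Ube2d3 shares 1736 exon bases with 4930539J05Rik on the opposite strand, which is not among the genes with counts. Whether reads of 4930539J05Rik were counted on Ube2d3 was not tested.

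Ube2n (ENSMUSG00000074781, chr10:95350742-95381525, plus strand, 4 exons) encodes the E2 that, paired with Ube2v1 or Ube2v2, builds chains used in signalling and DNA repair rather than for degradation. Its level was 71.4, 101.3, 89.6 and 84.1 CPM at 6m and 77.7, 94.6, 88.3 and 102.8 CPM at 24m, and the ages overlapped throughout. The log2FC was 0.10 (SE 0.148, 95% interval -0.21 to 0.40, adjusted p = 0.688). Its partner Ube2v1, which is itself without catalytic activity, was higher in every aged library (203.3 to 277.7 CPM) than in any young adult library (134.4 to 166.2 CPM), with a log2FC of 0.66 (SE 0.121, adjusted p = 4.06e-04). Ube2v1 shares 1673 exon bases on the same strand with Gm20431, another gene of the table, so its counts are uncertain. Ube2v2 had a log2FC of 0.23 (95% interval -0.46 to 0.91, adjusted p = 0.676) and reversed its sign without young adult replicate 4. Otub1, a protein that binds Ube2n and Ube2d enzymes and holds them inactive, had a log2FC of 0.09 (adjusted p = 0.587), reversed its sign in 2 of 24 alternatives, and shares 2128 exon bases with Macrod1 on the opposite strand.

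Ube2d3 was 1 of 7 conjugating enzyme genes called higher among 31 tested, and none of the 31 was called lower. Their median log2FC was 0.26, and 10 of them did not overlap between the ages. Of all tested genes, 10.3% were called higher and 21.1% did not overlap. The strongest rise was in Ube2ql1, from 87.7 ± 11.8 to 175.3 ± 21.9 CPM (SD, n = 4 per age), with a log2FC of 0.99 (SE 0.136, adjusted p = 1.13e-05). Ube2z, an E2 that takes ubiquitin from the second ubiquitin-activating enzyme Uba6 rather than from Uba1, rose from 27.8 ± 3.90 to 49.99 ± 3.99 CPM, with a log2FC of 0.82 (SE 0.186, adjusted p = 0.0027), and shares 1050 exon bases with Snf8 on the opposite strand. Uba6 itself had 13 counts over all libraries and was not tested.

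Ube3a (ENSMUSG00000025326, chr7:58878492-58961832, plus strand, 11 exons) encodes a HECT ligase, which takes ubiquitin onto itself before passing it to the substrate. In neurons the gene is imprinted and read mainly from the maternal copy, and its loss there causes Angelman syndrome in people. Its counts were low, with 18, 8, 12 and 12 at 6m and 3, 4, 7 and 3 at 24m. Each aged library held fewer counts than any young adult library, and 2 aged libraries were at 3 counts. In CPM the values were 22.2, 14.5, 14.9 and 15.1 at 6m and 4.57, 4.16, 8.96 and 2.30 at 24m. The mean fell from 16.7 ± 3.68 to 4.998 ± 2.82 CPM (SD, n = 4 per age), with a log2FC of -1.82 (SE 0.402, 95% interval -2.64 to -0.99, adjusted p = 0.0022).

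The size of this change was larger than that of 99.1% of all tested genes, and its error was also the largest of the 7 genes. Ube3a was called lower in all 23 alternatives in which it was tested, with a log2FC between -2.23 and -1.48 and an adjusted p between 5.03e-04 and 0.0244. It was not tested where more than 5 counts were asked of every library. Its counts summed to 50 at 6m and 17 at 24m, so it met the filter on the mean count mainly through the young adult libraries. The alternatives rest on these same few reads and are no separate evidence. Ube3a shares 1803 exon bases with the antisense RNA Snhg14 on the opposite strand, which is known to silence the paternal copy in neurons. On that strand it shares more with the loci 9330162G02Rik and Gm44560, at 2151 and 2025 exon bases. Neither Snhg14 nor these loci are among the genes with counts. The strand setting of the counting is not given in the sources used here, so whether their reads were counted on Ube3a was not tested. The partners of Ube3a were not called. Herc2, a giant ligase that binds Ube3a and stimulates it, had a mean of 59.8 ± 11.3 CPM in the young adults and 52.1 ± 8.92 CPM in the aged mice (SD, n = 4 per age, log2FC -0.18, 95% interval -0.54 to 0.18, adjusted p = 0.496). Ube2l3, the E2 that works with Ube3a, had a log2FC of 0.18 (95% interval -0.08 to 0.43, adjusted p = 0.341) and overlaps Ydjc on the opposite strand.

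Nedd4 (ENSMUSG00000032216, chr9:72569596-72657134, plus strand, 29 exons) encodes a HECT ligase for membrane proteins, with roles in neurite growth and receptor turnover. Its level was 38.2, 36.2, 49.8 and 27.6 CPM at 6m and 36.6, 38.5, 38.4 and 41.4 CPM at 24m. All aged libraries fell within the range of the young adult ones, which spread more widely (SD 9.13 CPM at 6m and 2.00 CPM at 24m, n = 4 per age). The log2FC was 0.04 (SE 0.194, 95% interval -0.36 to 0.43, adjusted p = 0.922). Nedd4 shares 1428 exon bases on the same strand with Gm7265, which is not among the genes with counts. Ndfip1, an adaptor that binds Nedd4 family ligases and activates them, had a log2FC of 0.37 (SE 0.129, adjusted p = 0.038) under the minimum of fold and with overlapping ages, and Ndfip2, a related adaptor, had a log2FC of 0.32 (95% interval -0.11 to 0.76, adjusted p = 0.297). The adjusted p of Ndfip1 was between 0.0012 and 0.226 over the 24 alternatives, so it did not pass in all of them.

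Of the 20 tested HECT ligases, 2 were called higher and 4 lower, beside 10.3% and 4.17% of all tested genes. Their median log2FC was -0.08, and Ube3a had the lowest log2FC among them. Trip12, a ligase of the ubiquitin fusion degradation pathway, fell from 48.1 ± 3.52 to 26.7 ± 5.03 CPM (SD, n = 4 per age, log2FC -0.83, SE 0.191, adjusted p = 0.0029). Herc1, a giant member of the family that overlaps Fbxl22 on the opposite strand, fell from 94.7 ± 4.97 to 60.6 ± 5.46 CPM (log2FC -0.64, SE 0.144, adjusted p = 0.0027), a call that was lost in 1 of 24 alternatives. In the other direction, Arel1, an inhibitor of apoptosis that shares 650 exon bases with Ylpm1 on the opposite strand, rose from at most 4 counts in each young adult library to between 9 and 18 counts in each aged library (log2FC 1.96, SE 0.455, adjusted p = 0.0032). Its counts summed to 10 at 6m and 50 at 24m, so Arel1 met the filter on the mean count mainly through the aged libraries. Ube3b, the closest in name to Ube3a but a separate ligase, rose from 29.4 ± 12.1 to 49.2 ± 3.13 CPM (log2FC 0.69, SE 0.215, adjusted p = 0.023), a call that was lost in 6 of 24 alternatives.

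**Figure D4:**
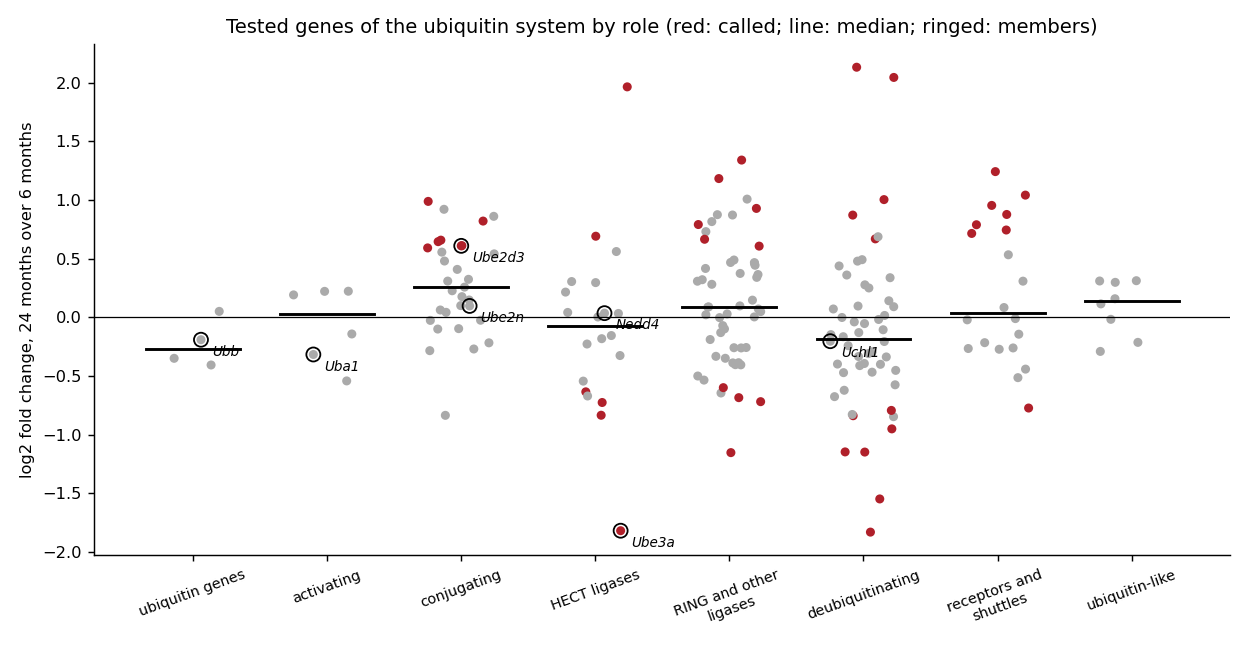
Log2FC of 24 months over 6 months for every tested gene of the ubiquitin system, set out by role. Each point is a gene, red where it passed both thresholds, black lines are medians and rings mark the 7 genes followed here. Conjugating enzymes had 7 red points above 0 and none below, HECT ligases 2 above and 4 below, and deubiquitinating enzymes 5 above and 7 below. Among all tested genes, 10.3% were called higher and 4.17% lower.

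Uchl1 (ENSMUSG00000029223, chr5:66832748-66845009, plus strand, 9 exons) encodes the neuronal ubiquitin C-terminal hydrolase, which frees ubiquitin from small adducts and binds the monomer. Its level was 1718, 1904, 1775 and 1853 CPM at 6m and 1567, 1605, 1565 and 1556 CPM at 24m. Every aged library was below any young adult library, and the spread was small in each group, with 1813 ± 82.4 and 1573 ± 21.9 CPM (SD, n = 4 per age). The log2FC was -0.20 (SE 0.0814, 95% interval -0.37 to -0.04, adjusted p = 0.0739), which passed neither threshold, and its sign turned under both quantile normalizations, with values of 0.004 and 0.01, so no direction is given. The summed CPM of the neuronal markers was higher in the same aged libraries, as given above.

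Among the 52 tested deubiquitinating enzymes, 5 were called higher and 7 lower, beside 10.3% and 4.17% of all tested genes. Their median log2FC was -0.19. Josd1 rose from 4.92 ± 1.94 to 21.5 ± 6.24 CPM (SD, n = 4 per age, log2FC 2.13, SE 0.387, adjusted p = 3.64e-04), and Usp22, the enzyme that removes ubiquitin from histones in the SAGA complex, rose from 9.001 ± 4.21 to 39.7 ± 10.4 CPM (log2FC 2.04, SE 0.295, adjusted p = 2.15e-05). Counts were low, with 2 to 4 per young adult and 13 to 29 per aged library for Josd1, and 2 to 11 and 22 to 43 for Usp22. Josd1 thus met the filter on the mean count mainly through the aged libraries. Otud1 had a log2FC of 1.00 (SE 0.305, adjusted p = 0.020), lost in 6 of 23 alternatives. Lower values were found for Mindy2, which trims long chains (log2FC -1.83, SE 0.468, adjusted p = 0.0066, at most 10 counts in any library), for Usp34 (log2FC -1.55, SE 0.210, adjusted p = 9.57e-06) and for Usp9x, which stabilizes many neuronal substrates (log2FC -1.15, SE 0.254, adjusted p = 0.0023). Counts of Mindy2 summed to 33 at 6m and 11 at 24m, so it met the filter on the mean count mainly through the young adult libraries. Usp34 shares 3831 exon bases with Ahsa2 and Mindy2 shares 71 with Sltm, both on the opposite strand.

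The remaining ligases and the proteins that read ubiquitin marks gave calls in both directions. Of 53 tested RING, RBR, U-box and cullin ligase genes, 6 were called higher and 4 lower (median log2FC 0.09), beside 10.3% and 4.17% of all tested genes. Fbxl16, a protein of the F-box family, rose from 93.3 ± 14.8 to 237.5 ± 79.9 CPM (SD, n = 4 per age, log2FC 1.34, SE 0.177, adjusted p = 6.36e-06), and Rnf157 rose with a log2FC of 0.93 (adjusted p = 5.13e-04). Cul3, a scaffold of cullin ligases, Mycbp2, a ligase of axon and synapse growth, and Ubr4, which recognizes N-terminal degradation signals, fell by 0.72, 0.68 and 0.60 on the log2 scale (adjusted p = 0.013, 0.0090 and 0.0024). These 3 calls were each lost in some alternatives. The ligase Stub1, also called CHIP, which works with Ube2d and Ube2n enzymes on misfolded proteins, had a log2FC of -0.39 (SE 0.0922, adjusted p = 0.0039) with no overlap between the ages, under the minimum of fold, and shares 1728 exon bases with Jmjd8 on the opposite strand.

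Of 20 ubiquitin receptors, shuttles and cofactors of the segregase Vcp, all tested, 7 were called higher and 1 lower (median log2FC 0.04), beside 10.3% and 4.17% of all tested genes. Nploc4, a cofactor of Vcp, had a log2FC of 1.04 (adjusted p = 0.015), lost in 4 of 23 alternatives, and the shuttle factors Rad23b and Ubqln1, which carry ubiquitinated proteins to the proteasome, had log2FC of 0.95 (adjusted p = 3.86e-04) and 0.74 (adjusted p = 0.0073). Tax1bp1, a receptor that hands ubiquitinated cargo to autophagy, fell from 77.9 ± 5.12 to 45.6 ± 0.635 CPM (SD, n = 4 per age, log2FC -0.77, SE 0.150, adjusted p = 6.96e-04). None of the 8 ubiquitin-like protein genes was called. Over the whole system, 196 of 237 listed genes were tested, and 27 were called higher and 16 lower with a median log2FC of 0.03, so that 21.9% were called, beside 14.5% of all tested genes.

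Of the 16 genes of this system that were called lower, 10 had long transcripts. Among the tested genes of the system with a canonical transcript over 8000 bases, a limit chosen after the values were seen, 10 of 24 were called lower and 1 higher, with a median log2FC of -0.62. Among all tested genes over that length, 72 of 487 (14.8%) were called lower and 36 higher, with a median log2FC of -0.14. Ube3a, at 10268 bases, is in the longest of 10 groups of equal size that the tested genes form by length, whose median log2FC was -0.05, and its own log2FC relative to that median was -1.77. Ube2d3, at 2997 bases, is in group 5, whose median was 0.10, and relative to it its log2FC was 0.51, under the minimum of fold. The mean annotated transcript length, weighted by counts, differed between the ages in these libraries, as given above, and its part in these values was not tested.

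**Figure D5:**
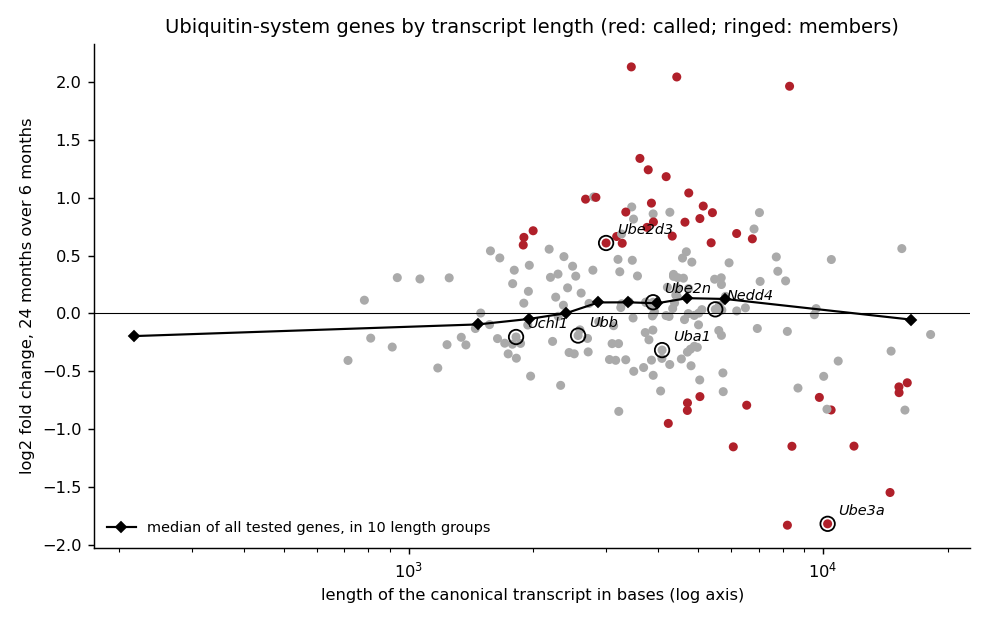
Log2FC of 24 months over 6 months against the length of the canonical transcript in bases, on a log axis, for every tested gene of the ubiquitin system. Each point is a gene, red where it passed both thresholds and ringed for the 7 genes followed here, and black diamonds are the medians of all tested genes in 10 groups of equal size by length, each placed at the geometric mean of its shortest and longest length. The diamonds go from -0.20 in the shortest group to 0.13 in group 8, and most genes of the system over 8000 bases lie below 0.

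The genes whose profile over the 8 libraries was nearest to each of the 7, among up to 2726 candidates with a mean count of at least 50, were found by the root mean square difference of log2 CPM after centring. For Ubb these included Rtcb (0.0419) and Gm20538 (0.0457). For Uba1 they were Mrpl11, Psmb10 and Tubg2 (0.0522 to 0.0529), and for Uchl1 Aplp1, Cox5a and Myl12b (0.0359 to 0.0461). Those of Ube2d3 included Rab7 (0.0851) and Slc3a1 (0.0894), and Ube2n was nearest to Ndufc2, Ociad2 and Zcchc12 (0.0602 to 0.0850). For Nedd4 these were Nckap1, Nap1l1 and Actr3b (0.101 to 0.105). Ube3a, with few counts, was farther from its nearest genes, which were Cmip at 0.253, Tro at 0.372 and Cnot1 at 0.459. All 3 of them were called lower, but a profile near that of Ube3a carries its age difference, so these calls add no evidence. Profiles share the libraries and their scaling, and the differences are a description.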

How the data were processed

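The deposited values are raw counts of ONT direct RNA reads per gene, which the authors mapped to GRCm39 with minimap2 (version 2.24 per the labels) and counted with featureCounts on an Ensembl annotation. The strand, overlap and multi-mapping settings are not given in the sources used here. The labels name another library kit than the methods, and the methods were followed. The low-count filter and the normalizations of the methods are not part of these values. Library totals were 573152 to 1255424 counts.

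Positions, symbols and canonical transcripts came from GENCODE vM39, of the same build (22281 of 22430 genes matched). In R 4.3.3, edgeR 4.0.16 was used with TMM factors and its quasi-likelihood test, with a single term for age over all 8 libraries, on the 9375 genes whose mean count exceeded 5. Genes were called at p 0.05 or less after Benjamini-Hochberg adjustment and log2FC of 0.58 or more in either direction. SE and 95% intervals come from that fit, and cover the spread between mice. Near-identical copies were searched with BLAST+ 2.17.0 at an identity of at least 95%. The alternatives used DESeq2 1.42.0 and limma 3.58.1 and other filters, factors, depths and left-out libraries. The tests were checked on simulated counts. The limit of 3 counts for a count of 0 covers counting error only.

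The 7 genes and the lists of the ubiquitin system and of markers were chosen with earlier results of these data known, so list counts are descriptions. The genes named are the 7, the other ubiquitin-coding genes, tested direct partners, the up to 3 highest and 3 lowest called genes of each list whose ages did not overlap, 3 nearest profiles for each of the 7, and table genes that copy or overlap them. Not every gene named by these criteria is reported here. Replicate numbers of the labels did not pair the mice: correlations of deviations from the age means were between -0.160 and 0.065 for the same number.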

Additional observations from a re-analysis of the deposited data

Results flagged for a closer look

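In 2 of 48 groups of 4 libraries examined, 1 library lay far from the other 3, and chance alone gives about 1 in 20 such groups. Ube3a at 6m replicate 1 was at 22.2 CPM, whereas the other young adult libraries were between 14.5 and 15.1 CPM. Without that library Ube3a was still called lower, with a log2FC of -1.64 and an adjusted p of 0.0136 in edgeR's quasi-likelihood test. The library total of 6m replicate 2 was 573152 counts, whereas the others of that age held 818963 to 843706. Without that library, the log2FC was -1.86 for Ube3a and 0.67 for Ube2d3, and both were called.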

How the results depend on the processing

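There were 24 alternatives, of which 1, Ubb summed with Gm8797, was chosen after seeing the data, and they were compared with the result as reported. Ube3a was called lower in all 23 alternatives in which it was tested, Ube2d3 was called higher in 20 of 24, and Ube2n was called in none of 24. With more than 5 counts asked of every library, Ube3a was not tested and 1 of the 7 genes was called. Relative to the median of genes of similar transcript length (10 groups), log2FC was 0.51 for Ube2d3, which left 1 of 7 called, and -0.0897 for Nedd4 and -0.0417 for Otub1, which reversed their sign. After quantile normalization, DESeq2 gave log2FC of 0.0136 for Ubb, 0.0039 for Uchl1 and -0.0225 for Nedd4, and limma-voom gave 0.0074 for Ubb and 0.0138 for Uchl1. With an adjusted p alone, Uba1 was added at -0.32, 24 genes of the ubiquitin system other than the 7 were lower instead of 15, and 2038 of all tested genes passed instead of 1359. DESeq2 called 834 genes on raw counts and 819, with 17 of the ubiquitin system other than the 7 higher instead of 26, on quantile-normalized counts. The share of higher calls, 71.2% as reported, was 84.5% with library sizes alone, where the median log2FC of all genes shifted to 0.10, 59.2% with limma-voom after quantile normalization and 56.7% with an adjusted p alone. With 1 library left out at a time, 1 to 2 of the 7 genes were called, and log2FC ranged from 0.53 to 0.73 for Ube2d3, -0.0903 to 0.21 for Nedd4, -0.11 to 0.42 for Ube2v2 and -0.0067 to 0.18 for Otub1. The cause of these differences was not tested. With a replicate block, 2 of the 7 genes and 1308 of all tested genes were called, log2FC was 0.60 for Ube2d3 and -1.76 for Ube3a, and no call among the 7 changed. The numbers only name the mice: correlations for the same number were 0.065, -0.010, 0.005 and -0.160. No gene of the table copied a member at 95% identity over 50% of its transcript, so a sum at these limits could not be made. Of the 7 genes, Ube3a had the fewest counts, a mean of 8.38 per library, and the largest SE.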
